A study of Mus musculus with 12 samples.

Results

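In mouse samples labelled with the NLS form of the growth hormone receptor, arrays were compared by the number that stands before GH in their sample titles: 3 NLS 1GH arrays against 3 NLS 0GH arrays, paired by the replicate letters b, c and d. They were chosen by their titles, and they are 6 of the 12 arrays of a study of the nuclear growth hormone receptor, whose other 6 hold WT 1GH and WT 0GH samples with the same letters. WT is read as wild type, and NLS commonly stands for nuclear localization signal. Each array was hybridised with Cy3-labelled total RNA of the sample and Cy5-labelled embryonic RNA from Ambion as the common reference.

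All 4 groups, the 0GH ones included, carry the same treatment label of human growth hormone at 100 ng/ml and the same description as a time course. Neither the unit of the 0 and the 1 nor the meaning of a 10 that follows the receptor name is stated, so the groups keep these numbers as names and are not read as hours or doses. The labels leave out the cell type, how the receptor forms were introduced, and whether b, c and d were grown separately. The p-values therefore measure only the spread between these samples, which may be technical. The values are log2 ratios of sample over reference, each array centred on the median of its tested features. The deposited ratio reads as reference over sample and its sign was turned, because 39 of 46 measured genes typical of embryo tissues then lie below the array median. The opposite reading would turn every sign given here.

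Growth hormone binds a receptor at the cell surface that has no kinase of its own and works through the bound kinase JAK2. JAK2 phosphorylates STAT5 factors, which enter the nucleus and bind GAS elements, and the genes they induce include the feedback inhibitors Cish and Socs2. The same receptor also activates the ERK pathway, whose targets are immediate early genes such as Fos and Junb, and a part of the receptor has been described in the nucleus.

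Each NLS array gave a value for 15939 to 19700 of 23040 spots, and 10762 features (8707 named genes and 2055 unnamed spots) had one on all 12 arrays and were tested. With 3 arrays a group, precision is limited by their number. NLS arrays of one group correlated across genes at 0.38 to 0.63, and the 2 NLS arrays of one letter at 0.43 to 0.73. In each letter the NLS 1GH array had the more densely labelled Cy3 sample, with 15.5, 12.8 and 13.3 bases per dye molecule in letters b, c and d, against 16, 13.7 and 15.1 on the NLS 0GH arrays. The ratios of the NLS 1GH arrays were also less spread, with an SD over spots of 2.32, 2.27 and 2.19, against 2.58, 2.44 and 2.46 on the NLS 0GH arrays. Features with a mean NLS level between -4 and -2 had a median difference of 0.68, and those between 2 and 4 one of -0.29. The Cy3 dye density was added to the fit only as an alternative, given at the end. Beyond that, the part of labelling and of the spread in the differences below was not tested.

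No feature passed an adjusted p of 0.05 in NLS 1GH minus NLS 0GH (0 of 10762, limma with the letter as a block, lowest adjusted p 0.911). An unadjusted p under 0.05 was found for 470 features, 4.37% of those tested. Of these, 287 were higher in NLS 1GH (2.67%) and 183 lower (1.7%). Evenly spread p-values would give 538. The median difference was -0.04, with 47.3% of features above 0, and 24.3% differed by 1 log2 unit or more on average. The 3 NLS 1GH arrays lay above all 3 NLS 0GH arrays for 416 features (3.87%) and below them for 369 (3.43%), and the sign was the same in all letters for 1368 higher features (12.7%) and 1378 lower ones (12.8%). Many genes named below were picked for a small p. Groups without overlap among them are no further support and are to be read beside these shares.

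The letters differed from each other. Over the 10762 features the SD of the difference was 2.21 in letter b, 1.20 in c and 1.75 in d. Taken across genes, as a description since genes are no independent replicates, the differences of letters b and c correlated at -0.02, those of b and d at -0.03 and those of c and d at 0.18. The median SE of a difference was 0.67 log2 units. Since nothing passed, what follows is given as values and not as changes.

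**Figure D1:**
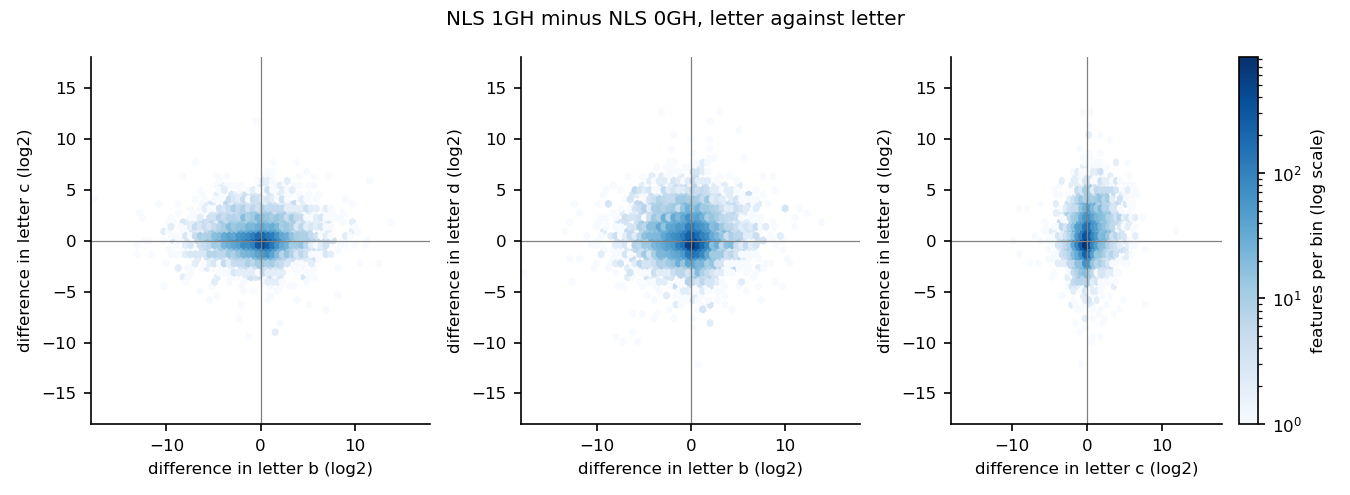
Difference of NLS 1GH minus NLS 0GH (log2) in one replicate letter against another for 10762 features, as counts of features per hexagon on a log colour scale. The clouds are centred on 0 and have little slant, with a Pearson correlation of -0.02 for b and c, -0.03 for b and d and 0.18 for c and d.

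Genes that growth hormone induces through STAT5 had no common direction in NLS 1GH arrays. Of 28 listed targets, 26 are on the array and 15 were tested. Of these, 7 lay above 0 and 8 below, and none had an unadjusted p under 0.05 (4.37% of all features did). Their median difference was -0.07, against -0.04 over all features, and it was 0.29 in letter b, -0.02 in c and 0.06 in d. It was 0.25 without centring, against 0.27 over all features, and 0.01 after quantile normalization, against -0.07 over all features. Its sign thus depends on the scaling. Without centring 68.4% of all features lay above 0, and list values without centring given below are to be read beside this share and the median of 0.27. The median of the targets was also above 0 with any 1 letter left out.

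Cish, an SH2 protein that blocks STAT5 docking on the receptor, lay well above the array median on every NLS array. It was at 2.47, 2.21 and 2.13 on the NLS 1GH arrays of letters b, c and d, against 2.54, 2.11 and 1.75 on the NLS 0GH arrays. The groups overlapped, and the difference was 0.14 (SE 0.80, 95% interval -1.70 to 1.98, adjusted p 0.999 in limma). The spread behind this interval is estimated from all 12 arrays, and Cish differed by 1.30, 2.44 and -2.25 between the GH numbers in the WT letters.

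The promoter of Cish is shown because it carries the motif that STAT5 binds. It was taken from RefSeq on build GRCm38.p6 (chr9:107296409-107296708, plus strand, 250 bases before to 50 after the start), and capitals mark matches to the GAS motif TTCNNNGAA, which is the same on both strands. This window holds 2 matches that lie next to each other.
Cish: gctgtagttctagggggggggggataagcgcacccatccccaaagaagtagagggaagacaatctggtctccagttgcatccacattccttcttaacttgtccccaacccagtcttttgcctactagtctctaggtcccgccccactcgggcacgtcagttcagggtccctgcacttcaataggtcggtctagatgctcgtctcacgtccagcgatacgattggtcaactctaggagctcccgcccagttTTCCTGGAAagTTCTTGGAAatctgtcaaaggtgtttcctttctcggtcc

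The GAS motif occurs in 8.30% of all 32851 promoters of this length. Of 6753 tested genes matched by gene identifier, 565 have it, and their median difference was 0.01, against -0.06 for the genes without it. It is present in 8.16% of the 821 matched genes that lay higher in NLS 1GH in all letters and in 6.38% of the 941 that lay lower. These matches describe the letters of the window and nothing about binding.

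Socs2, which limits growth hormone signalling, was at -0.03, 1.16 and 2.33 on the NLS 1GH arrays, against 2.25, 1.18 and 1.35 on the NLS 0GH arrays. It was lower in letter b, close to equal in c and higher in d, with a difference of -0.44 (SE 0.78). Pim1, a survival kinase, was at -1.38, 1.13 and -3.08 on the NLS 1GH arrays, against -2.25, 1.03 and -2.79 on the NLS 0GH arrays, so the letters differed far more than the GH numbers did. Id1, an inhibitor of basic helix-loop-helix factors, was slightly higher in every letter, by 0.62, 0.39 and 0.06 (mean 0.36, SE 0.60). Lif, a cytokine of the interleukin-6 family, was also higher in every letter, by 1.61, 0.27 and 0.54 (mean 0.80, SE 0.51). Ccnd3, a D cyclin of the G1 phase, was at -1.44, -0.17 and -0.85 on the NLS 1GH arrays, against -0.77, 0.13 and -0.07 on the NLS 0GH arrays. It was lower in every letter although the groups overlapped (-0.58, SE 0.34, unadjusted p = 0.122 in limma). Ccnd2 differed in sign between letters, with a mean of -0.41 (SE 0.97).

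The survival genes Bcl2l1 (0.21, SE 0.41) and Mcl1 (-0.21, SE 0.37), which encode BCL-XL and MCL1, differed by less than their SE. Birc5, the inhibitor of apoptosis survivin, was at 0.75, 1.38 and -0.08 on the NLS 1GH arrays, against 3.46, 1.46 and 1.69 on the NLS 0GH arrays. All NLS 1GH arrays lay below all NLS 0GH arrays, in letter c by only 0.08, and the difference was -1.52 (SE 1.0, 95% interval -3.85 to 0.80). Mybbp1a, a nucleolar protein that binds Myb, differed by -0.24 (SE 0.37), and Fxyd5, a regulator of the sodium pump, by -0.64 (SE 0.91), both with mixed signs over the letters.

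**Figure D2:**
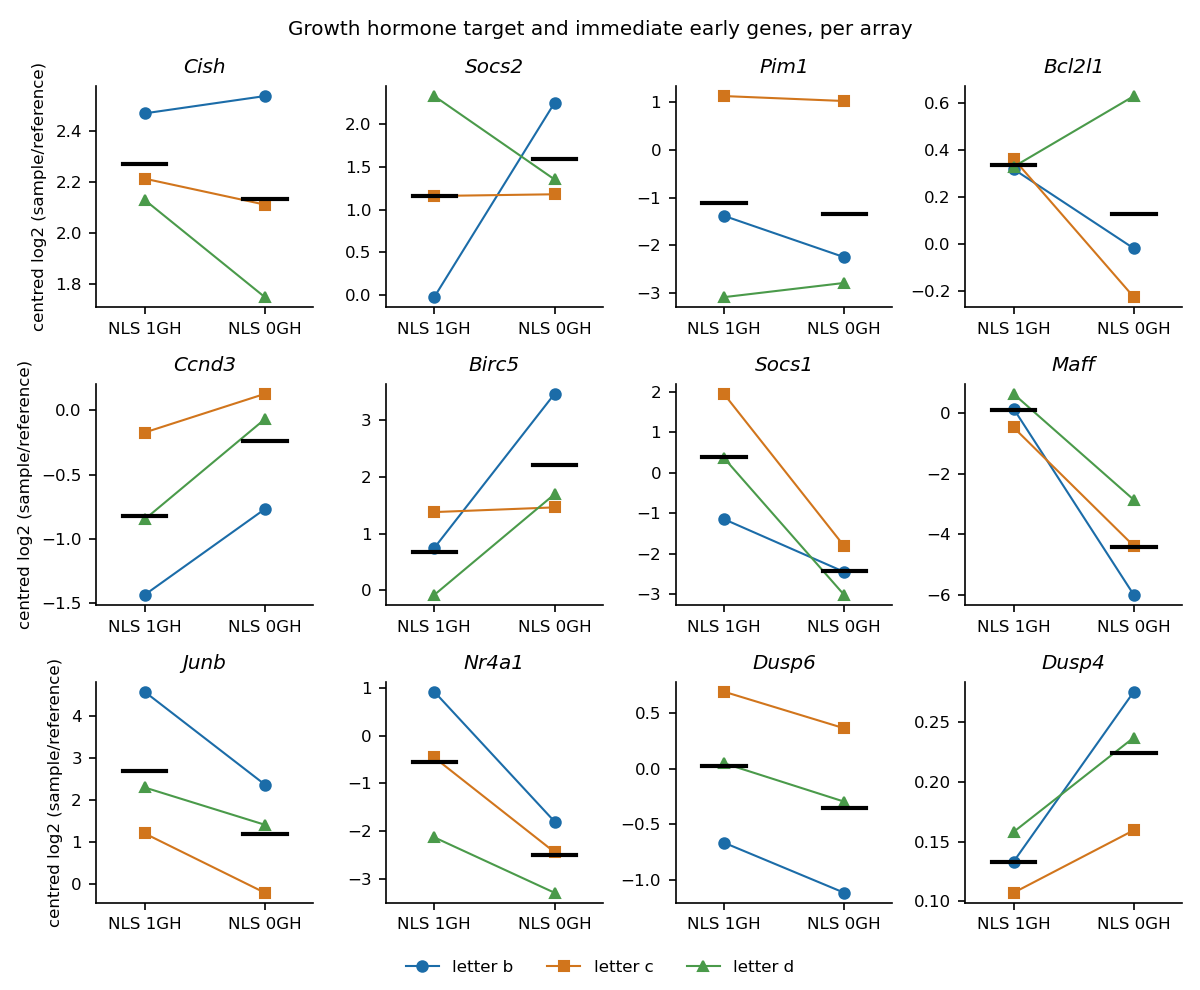
Centred log2 ratio of sample over reference for 12 genes on each NLS 1GH array (left) and NLS 0GH array (right), with points joined by replicate letter and a black bar at the group mean. Each panel has its own scale. Lines run in the same direction in all 3 letters for Ccnd3, Birc5, Socs1, Maff, Junb, Nr4a1, Dusp6 and Dusp4, and cross or differ for Cish, Socs2, Pim1 and Bcl2l1. The 12 genes are a selection and no measure of how often letters share a direction. Genes of mixed sign such as Fos, Btg2, Ccnd2 and Mcl1 are not drawn. Among all tested features 12.7% were higher and 12.8% lower in every letter.

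Some fixed targets had values on all 6 NLS arrays but not on all WT arrays, and were fitted on the 6 NLS arrays alone with the 12162 features measured there. In that fit 0 features passed an adjusted p of 0.05, 3.44% were higher and 1.38% lower at an unadjusted p under 0.05. Socs1, an inhibitor of JAK kinases that many cytokines induce, was at -1.14, 1.95 and 0.37 on the NLS 1GH arrays, against -2.45, -1.81 and -3.02 on the NLS 0GH arrays. The groups did not overlap, and its difference of 2.82 (SE 0.68) had an unadjusted p = 0.0146 and an adjusted p = 0.929 in limma. It was higher by 1.31, 3.76 and 3.39 in letters b, c and d. Myc was at 1.35, 1.24 and 1.11 on the NLS 1GH arrays, against 5.48, 0.96 and 2.94 on the NLS 0GH arrays, and its difference of -1.89 (SE 0.99) came from letters b and d. Jak2 was at 7.04, 3.04 and 0.54 on the NLS 1GH arrays, against 7.0, 2.93 and 2.51 on the NLS 0GH arrays, with letters b and c close to equal. Socs3 had a value on 2 NLS arrays, Ccnd1 on 4, Igf1 on 5 and Egr1 on 1, Stat5a had none, and no spot is named Stat5b or Osm, so these were not tested.

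Of 31 listed receptor, JAK and STAT components, 14 were tested, and 7 lay above 0 and 7 below. None had an unadjusted p under 0.05 (4.37% of all features did). Ghr, the receptor gene itself, was at 2.0, 0.59 and -0.35 on the NLS 1GH arrays, against 0.36, -0.75 and 2.38 on the NLS 0GH arrays. It was higher in letters b and c and lower in d, with a mean of 0.08 (SE 0.81). A spot for the mouse gene need not report the introduced receptor, whose species the labels do not give. Sirpa, an inhibitory receptor that JAK2 phosphorylates, was at -0.24, -0.18 and 0.15 on the NLS 1GH arrays, against -1.26, -1.19 and -1.62 on the NLS 0GH arrays. Its groups did not overlap, yet the difference of 1.27 had an SE of 1.03, because the WT letters varied (0.15, 5.18 and 0.27). Tyk2, a JAK family kinase, was lower in every letter, by -0.40, -1.11 and -1.58 (mean -1.03, SE 0.53, unadjusted p = 0.0891 in limma). Stat3 was higher in letters b and c and close to equal in d (0.79, SE 0.45). Il3ra, the alpha chain of the interleukin-3 receptor, was lower in every letter (-0.53, SE 0.54). Csf2ra, named after its values were seen, was at 3.43, 1.38 and 1.29 on the NLS 1GH arrays, against -1.5, 1.20 and -0.21 on the NLS 0GH arrays, with a difference of 2.20 (SE 1.09, unadjusted p = 0.114 in limma on the 6 arrays). Among 18 tested genes of Ras, ERK and PI3K signalling, 12 lay below 0 (52.7% of all features did), with a median of -0.20, which is 0.12 without centring. Gab2, a docking adaptor, was lower in every letter, by -4.89, -1.74 and -0.27 (mean -2.30, SE 1.01).

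Immediate early genes, which are transcribed within minutes of a growth signal without new protein synthesis, were split. Of 39 listed, 24 were tested, with 12 above 0 and 12 below, a median of 0.03, and 1 at an unadjusted p under 0.05 (4.37% of all features). The median was 0.35 without centring and -0.01 after quantile normalization. Higher in NLS 1GH in every letter were 5 of them (Maff, Junb, Nr4a1, Dusp6 and Jund) and Dusp4 was lower in every letter. Among all tested features 12.7% were higher and 12.8% lower in every letter.

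Maff encodes a small MAF factor of the basic leucine zipper family, without an activation domain of its own. It was at 0.13, -0.48 and 0.62 on the NLS 1GH arrays of letters b, c and d, against -5.99, -4.38 and -2.86 on the NLS 0GH arrays. All 3 NLS 1GH arrays lay close to the array median and all 3 NLS 0GH arrays far below it. The difference was 4.5 (SE 0.83, 95% interval 2.57 to 6.43), with an unadjusted p = 0.000688 and an adjusted p = 0.911 in limma. In WT samples the difference was 0.83, and the NLS difference exceeded it by 3.67 (SE 1.18, unadjusted p = 0.015 and adjusted p = 0.95 for the interaction in limma).

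Of 3 RefSeq starts of Maff, the window of 1 holds motifs that growth signals are known to act on, and it is shown for that reason (build GRCm38.p6, chr15:79347270-79347569, plus strand). Capitals mark an E-box (CACGTG), a cyclic AMP response element (TGACGTCA) and a GAS match (TTCNNNGAA), each of which reads the same on both strands.
Maff: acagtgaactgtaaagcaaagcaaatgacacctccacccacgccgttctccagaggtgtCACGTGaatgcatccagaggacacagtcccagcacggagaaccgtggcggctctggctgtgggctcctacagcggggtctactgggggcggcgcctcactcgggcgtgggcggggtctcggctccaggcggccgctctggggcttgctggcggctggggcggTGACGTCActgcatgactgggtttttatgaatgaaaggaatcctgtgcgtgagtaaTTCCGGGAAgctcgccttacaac

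The response element occurs in 1.79% of all promoters and the E-box in 7.15%. Counted per gene over all its windows, they occur in 3.07% and 10.6% of the 6753 matched genes, and GAS in 8.37%. The response element is present in 3.29% of the 821 matched genes higher in all letters and 4.04% of the 941 lower. For the E-box these shares are 9.99% and 11.2%. None of the searched motifs, which also included AP-1 (TGANTCA, 7.81% of promoters) and the CArG box of serum response factor (1.63%), was found in the windows of Junb, Nr4a1 and Socs1.

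Junb, a subunit of AP-1, was at 4.58, 1.20 and 2.29 on the NLS 1GH arrays, against 2.36, -0.22 and 1.4 on the NLS 0GH arrays. It was higher in every letter, by 2.21, 1.42 and 0.89, while the groups overlapped. The difference was 1.51 (SE 0.71, unadjusted p = 0.0658 and adjusted p = 0.965 in limma), against -1.28 in WT samples (unadjusted p = 0.024 for the interaction). Nr4a1, an orphan nuclear receptor, was at 0.93, -0.45 and -2.13 on the NLS 1GH arrays, against -1.80, -2.45 and -3.30 on the NLS 0GH arrays. It too was higher in every letter, with a mean of 1.96 and an SE of 1.47 to which the WT letters contributed (5.77, -3.79 and 1.91). Dusp6, a phosphatase of ERK, differed by only 0.38 (SE 0.62) and Jund by 0.16 (SE 0.33). Fos, the partner of JUN proteins in AP-1, was lower in letter b and close to equal in c and d (-0.38, SE 0.76). Btg2, an antiproliferative gene, had a mean of 1.58 that came from letter d alone (-0.02, 0.16 and 4.62). Gadd45b, a stress gene measured on the 6 NLS arrays and named after its values were seen, was at 0.55, -0.31 and -0.55 on the NLS 1GH arrays, against -0.69, -3.31 and -2.11 on the NLS 0GH arrays. Its groups did not overlap (1.94, SE 0.55, unadjusted p = 0.0258 and adjusted p = 0.929 in limma on the 6 arrays). With at least 2 values per group on all 12 arrays its unadjusted p was 0.134 in limma.

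The genes of smallest p with 1 direction in all letters had diverse functions. On the higher side Gphn, which encodes the synaptic scaffold gephyrin, was first with a difference of 3.23 (SE 0.46, unadjusted p = 0.000114, adjusted p 0.911 in limma). Its 2 spots disagreed in size, with 5.66 and 0.81, and the second was at 2.84, 0.14 and -0.56 in letters b, c and d. Ppp1r1c, an inhibitor of protein phosphatase 1, was at -2.33, -7.25 and -3.89 on the NLS 1GH arrays, against -9.85, -10.33 and -10.01 on the NLS 0GH arrays. Its groups were far apart (5.57, SE 0.92), but between 0.65% and 1.31% of values on an NLS array lie beyond 8 log2 units and such sizes are not exact. Dnajc17, a J-domain protein, was at 0.29, -1.01 and 0.50 on the NLS 1GH arrays, against -1.67, -2.89 and -2.86 on the NLS 0GH arrays (2.40, SE 0.40). Tpst1, which sulfates tyrosines of secreted proteins, was at -0.35, -0.40 and 0.02 on the NLS 1GH arrays, against -2.19, -4.01 and -5.99 on the NLS 0GH arrays (3.82, SE 0.80). For both, the groups did not overlap (1GH higher for 3.87% of all features), which is no further support since they were picked for a small p. The others were Atp8a2, a phospholipid flippase, at 3.40 (SE 0.64), Sapcd1 at 3.38 (SE 0.63), Rev1, a polymerase of translesion synthesis, at 2.78 (SE 0.56), Fam189a1 at 2.68 (SE 0.56) and 1700012B09Rik at 2.08 (SE 0.42). Maff was the fourth by p.

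On the lower side Mrrf, the mitochondrial ribosome recycling factor, was at -2.93, -4.02 and -5.13 on the NLS 1GH arrays, against -0.50, -0.75 and 0.34 on the NLS 0GH arrays. The difference of -3.72 (SE 0.77) had an unadjusted p = 0.00133 and an adjusted p = 0.965 in limma. Tbc1d9, of a family that acts on Rab GTPases, was at -5.69, -4.23 and -2.76 on the NLS 1GH arrays, against 2.52, -0.84 and -0.36 on the NLS 0GH arrays (-4.67, SE 1.04). Hook1, a linker of cargo to microtubules, was at 0.13, -0.08 and 0.00 on the NLS 1GH arrays, against 2.17, 1.71 and 3.46 on the NLS 0GH arrays (-2.43, SE 0.56). Dcps, the scavenger enzyme that hydrolyses mRNA caps, was at -0.75, 0.02 and -0.36 on the NLS 1GH arrays, against 3.79, 1.5 and 3.11 on the NLS 0GH arrays (-3.16, SE 0.77). In all 4 genes the NLS 1GH arrays lay below all NLS 0GH arrays, as for 3.43% of all features. The genes were picked for a small p, so this is no further support. Tbx5, a T-box factor of heart and forelimb, was at -4.55 (SE 1.03), Bnip2, which binds BCL2, at -3.14 (SE 0.75), 1700016P04Rik at -3.41 (SE 0.86), 2810408I11Rik at -2.62 (SE 0.71) and Prkca, protein kinase C alpha, at -1.63 (SE 0.44). Serpina1e, an alpha-1 antitrypsin, was at -3.53 (SE 0.96), but mouse has several near-identical copies of this gene that spots may not tell apart. Each of these 20 genes had an adjusted p between 0.911 and 0.965.

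**Figure D3:**
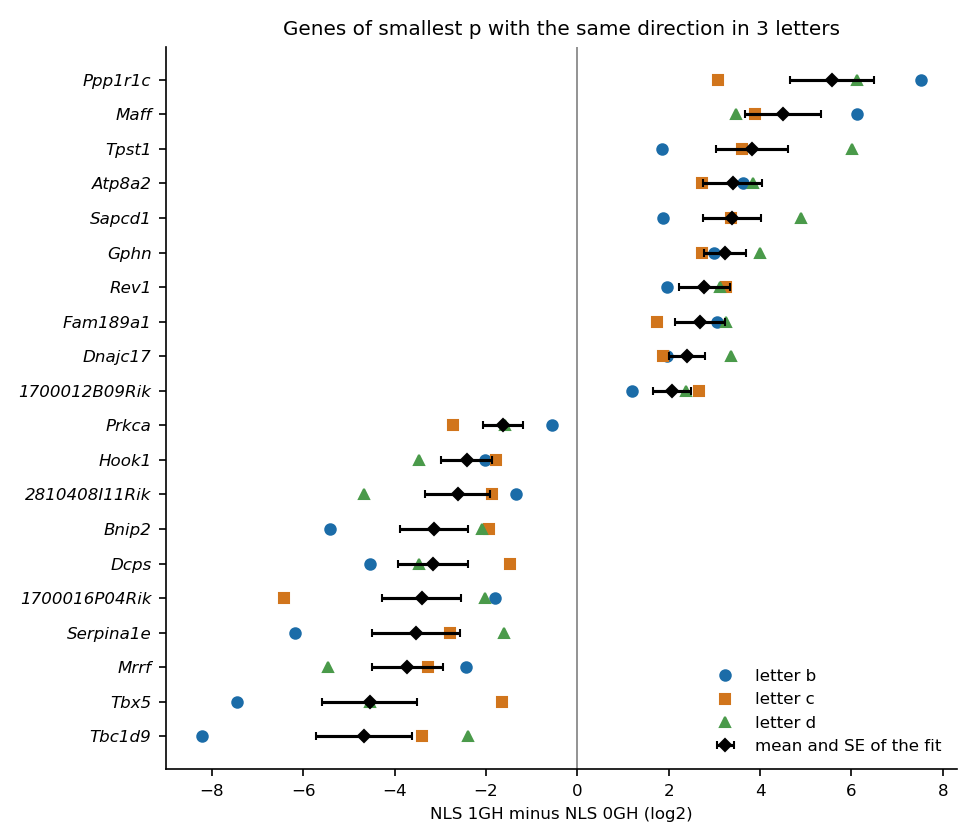
Difference of NLS 1GH minus NLS 0GH (log2) by replicate letter for the 10 genes per direction with the smallest unadjusted p among those with the same sign in 3 letters, with the mean and its SE from limma as black diamonds. They were picked for these p-values, and none passed the adjusted threshold.

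B lymphoid markers did not move together. Of 20 listed B lymphoid markers 13 were tested, with 8 above 0 and 5 below, a median of 0.27 (0.59 without centring and 0.14 after quantile normalization, but -0.12 without letter d). An unadjusted p under 0.05 was found for Ighm and Ms4a1, which were higher, and for Btk, which was lower (4.37% of all features had one, 2.67% higher and 1.7% lower). Ighm, the heavy chain of immunoglobulin M, was at 0.65, -1.86 and -1.05 on the NLS 1GH arrays, against -1.0, -3.02 and -2.90 on the NLS 0GH arrays. It was higher in every letter, by 1.66, 1.16 and 1.85, while the groups overlapped (1.56, SE 0.38, unadjusted p = 0.00357 and adjusted p = 0.965 in limma). Its 5 spots had differences between 0.82 and 2.36, each of them above 0 in every letter, although the spots share the same 6 samples. In WT samples Ighm differed by 0.17, with letters of both signs, and the interaction had an unadjusted p = 0.033.

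Ms4a1, the surface antigen CD20, was at 0.96, 0.76 and 0.05 on the NLS 1GH arrays, against -4.21, -2.31 and -1.05 on the NLS 0GH arrays. The groups did not overlap (3.12, SE 1.02, unadjusted p = 0.0158). It differed by -2.08 in WT samples, with every WT letter below 0, so that the interaction was 5.19 (SE 1.44, unadjusted p = 0.0071 and adjusted p = 0.95 in limma). Btk, the kinase downstream of the B cell receptor, was at -0.96, 1.90 and 3.55 on the NLS 1GH arrays, against 4.53, 3.98 and 4.63 on the NLS 0GH arrays. It was lower in every letter (-2.89, SE 0.90), and also in every WT letter (-2.43), with an interaction of -0.46. Cd79a and Pax5 were higher in every letter, with means of 0.74 (SE 0.53) and 0.56 (SE 0.75), and Vpreb3 and Dntt lower, with means of -1.61 (SE 1.07) and -0.92 (SE 0.44). Blnk, an adaptor of the B cell receptor measured on the 6 NLS arrays and named after its values were seen, was at -3.77, -1.30 and 1.31 on the NLS 1GH arrays, against -6.24, -6.11 and -3.49 on the NLS 0GH arrays. It was higher by 2.48, 4.81 and 4.80 in the letters (unadjusted p = 0.00443, adjusted p = 0.929 in limma on the 6 arrays).

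**Figure D4:**
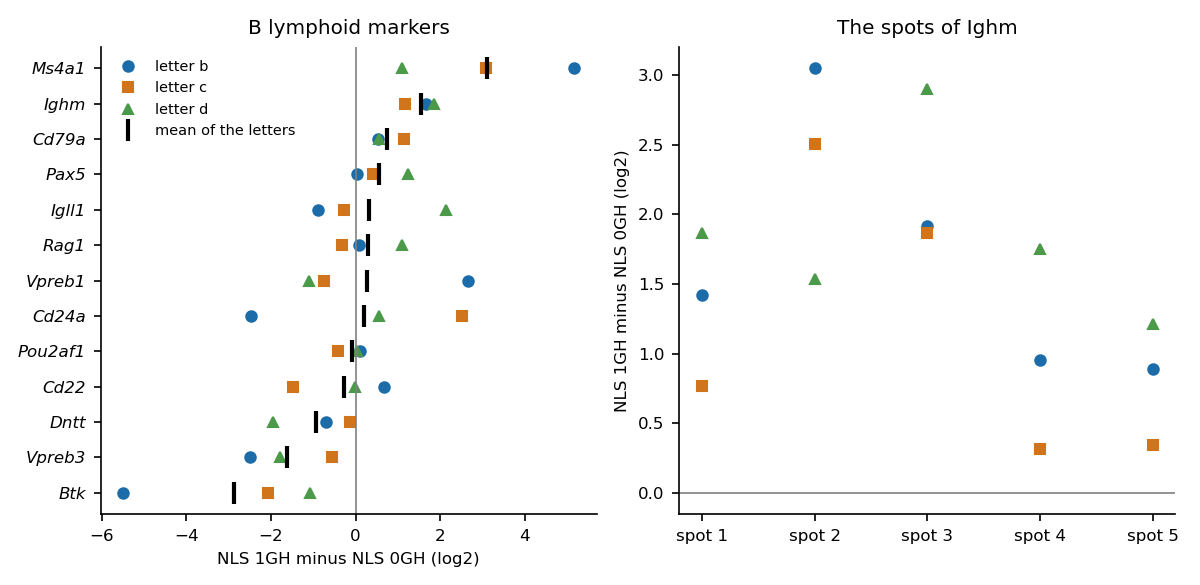
Left, difference of NLS 1GH minus NLS 0GH (log2) for the 13 tested B lymphoid markers by replicate letter, with a black tick at the mean. Right, the same difference for each of the 5 spots of Ighm, where all points lie above 0.

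For most cell type marker lists the difference in mean level changed sign between letters. The mean centred level of the 13 B lymphoid markers was 1.15, 0.01 and 0.49 on the NLS 1GH arrays, against 1.23, -0.17 and 0.28 on the NLS 0GH arrays. The 11 hepatocyte markers lay far below the median on all arrays, at -3.59, -3.37 and -3.91 on NLS 1GH, against -4.25, -2.99 and -4.29 on NLS 0GH, as did the 10 fibroblast markers, between -1.96 and -2.40 on NLS 1GH, against -2.17 to -2.32 on NLS 0GH. Markers of liver, fibroblasts and epithelia share genes with the embryo tissue list that set the sign, so their low side is no independent finding. Of 8 tested erythroid and megakaryocyte markers 4 lay above 0 and 4 below, with a median of -0.001. Their mean level was 0.276, -0.319 and 0.062 on NLS 1GH, against 0.239, -0.323 and -0.303 on NLS 0GH, so slightly higher in every letter. Groups did not overlap for 1 higher and 1 lower gene (3.87% and 3.43% of all features). In this list Ermap, an erythroid membrane protein, was at -1.27, -2.67 and -3.01 on the NLS 1GH arrays, against -3.35, -3.67 and -4.59 on the NLS 0GH arrays. Its groups did not overlap (1.55, SE 0.41, unadjusted p = 0.00568). Nfe2, a globin and platelet gene regulator, was lower in every letter on both of its spots (-1.15, SE 0.59). Gata1 was higher in every letter, though close to equal in c (0.73, SE 0.48). The 11 myeloid markers had a mean level of -1.0, -0.67 and -0.33 on the NLS 1GH arrays, against 0.65, -1.09 and -0.76 on the NLS 0GH arrays, so they were lower in letter b and higher in c and d. Their median difference was -0.62, made of -1.62 in letter b, -0.02 in c and 0.54 in d, and without letter b the median was 0.20. Prtn3, a granule protease, was lower by 5.52 in letter b and higher by 0.17 and 0.34 in c and d. Mpo, myeloperoxidase, was at 0.82, 1.84 and 2.37 on the NLS 1GH arrays, against 2.44, -2.46 and -0.20 on the NLS 0GH arrays, so it too differed in sign. The 6 epithelial markers had a mean level of -2.62, -2.13 and -1.10 on the NLS 1GH arrays, against -2.12, -2.28 and -2.35 on the NLS 0GH arrays, with the largest gap in letter d. The 7 tested T lymphoid markers had a mean level of -0.48, -0.11 and -1.2 on the NLS 1GH arrays, against -0.20, -0.24 and -0.62 on the NLS 0GH arrays. They had a median difference of -0.15 (0.16 without centring) and the 6 mast cell and basophil markers one of 0.11 (-0.06 after quantile normalization). Neither list held a gene with an unadjusted p under 0.05 (4.37% of all features had one). In bulk RNA fewer cells of a type and less RNA per cell cannot be told apart.

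Ribosomal protein genes lay lower in NLS 1GH by a small amount after centring. Of 58 tested, 52 were below 0 (52.7% of all features were), with a median of -0.31. Without centring the median was 0.00, with 29 above 0 and 29 below, while all features had a median of 0.27 and 68.4% lay above 0. After quantile normalization 51 of the 58 were below 0, with a median of -0.31, against -0.07 over all features. The median was 0.08 in letter b, -0.33 in c and -0.60 in d, and 25, 49 and 54 of the 58 genes were below 0 in these letters. Without letter d the median was -0.12. In WT samples 50 of the 58 lay above 0 (52.5% of all features did, and 47.5% lay below), with a median of 0.32 and with -0.03, 0.21 and 0.65 in the letters. None of the 58 had an unadjusted p under 0.05 (4.37% of all features did). Rpl13 was at 0.75, 0.85 and 0.63 on the NLS 1GH arrays, against 1.23, 1.41 and 1.37 on the NLS 0GH arrays, with no overlap (-0.60, SE 0.35). Rps18 differed by 0.06, -0.92 and -0.89, Rpl7 by 0.32, -1.77 and -1.26, and Rps23 by -3.94, -0.21 and -0.13. Features with a mean level between 0 and 2, where most of these genes lie, had a median of -0.13. The Gapdh control spots, which were left out of the tests, were also lower after centring, at -0.36, 1.03 and 0.79 on the NLS 1GH arrays, against 0.44, 1.20 and 1.60 on the NLS 0GH arrays. Many of these genes have processed copies in the genome that a spot may also detect.

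Of 17 glycolysis genes 14 were below 0 (52.7% of all features were), with a median of -0.25, which is 0.06 without centring. The median was -0.02 in letter b, -0.11 in c and -0.68 in d. Hk1, a hexokinase, was at -0.14, 0.02 and 0.06 on the NLS 1GH arrays, against 0.08, 0.45 and 1.45 on the NLS 0GH arrays (-0.68, SE 0.34, unadjusted p = 0.0834 in limma). Ldha (-0.51, SE 0.34), Pgam1 (-0.51, SE 0.36) and Gapdh (-0.39, SE 0.40) were lower in every letter. Genes of the respiratory chain and ATP synthase had 37 of 49 below 0 and a median of -0.18 (0.13 without centring). Against that side Ndufb5, a subunit of complex I, was higher in every letter, by 3.38, 0.67 and 2.43 (2.16, SE 0.72, unadjusted p = 0.0178). Atp5e was lower by 4.59 in letter b and by 0.35 and 0.31 in the others. Proteasome genes had 18 of 26 below 0 (median -0.21, or 0.11 without centring). Psmc1, an ATPase subunit of the proteasome base measured on the 6 NLS arrays and named after its values were seen, was at -1.0, 0.12 and -0.92 on the NLS 1GH arrays, against 1.35, 2.17 and 1.67 on the NLS 0GH arrays. Its letters agreed closely, at -2.35, -2.05 and -2.59 (SE 0.41, unadjusted p = 0.00516 and adjusted p = 0.929 in limma). Ribosome biogenesis genes had 23 of 36 below 0 (median -0.22, or 0.09 without centring). Ebna1bp2, a nucleolar assembly factor, was higher by 5.09, 0.15 and 3.29 (2.84, SE 1.17), and Npm1, the nucleolar protein nucleophosmin, was lower by 1.63, 0.10 and 0.36, with no overlap between the groups.

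**Figure D5:**
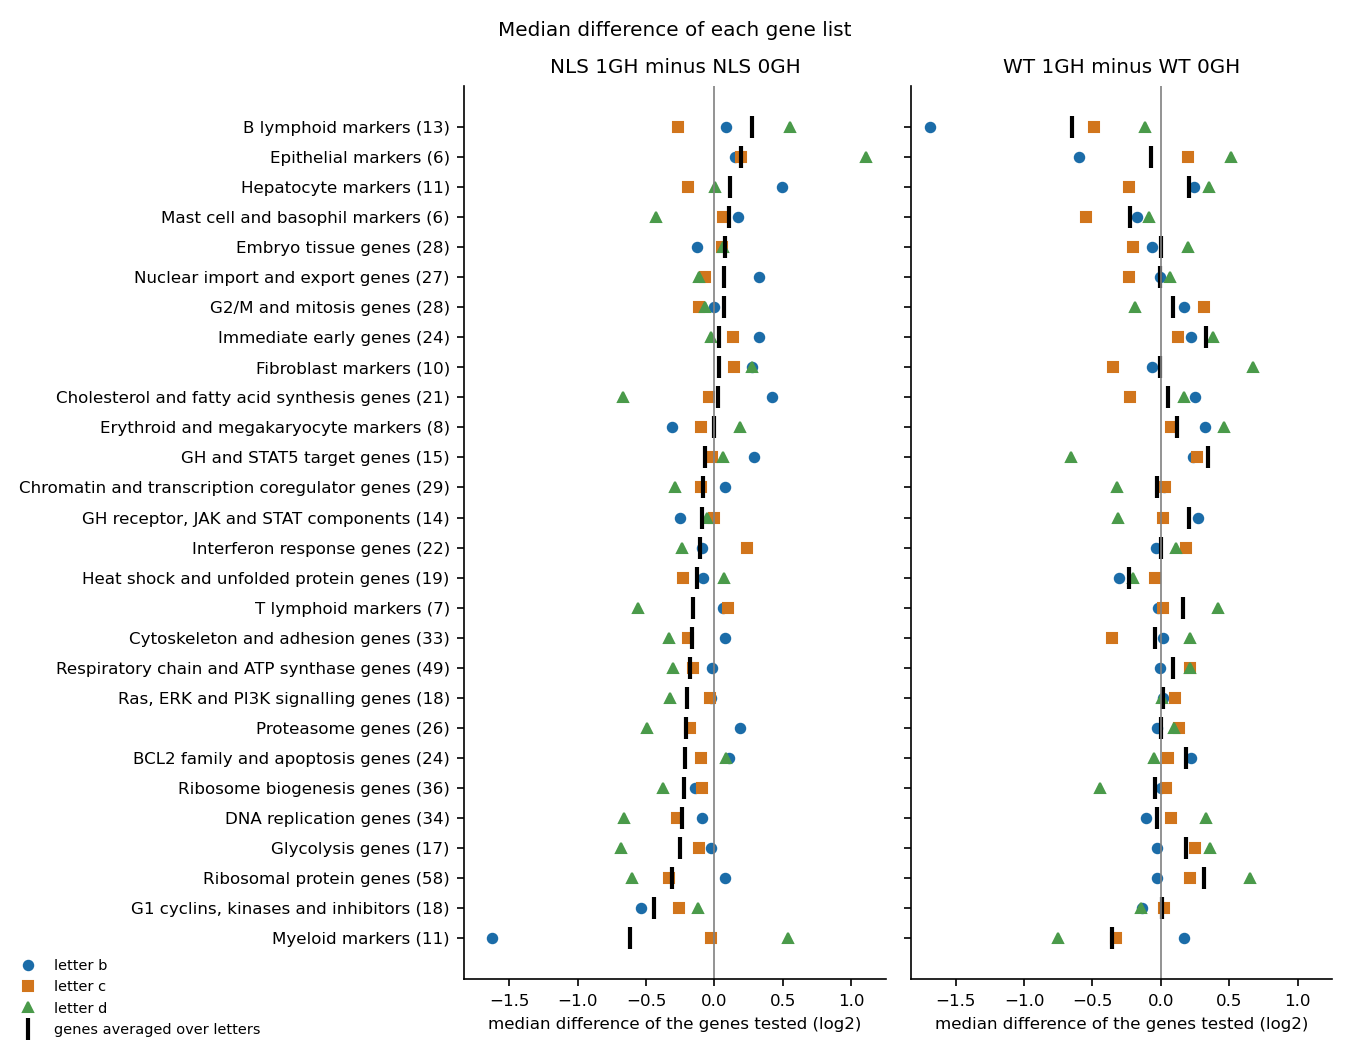
Median difference (log2) of the tested genes of each list (number tested in brackets) for NLS 1GH minus NLS 0GH (left) and WT 1GH minus WT 0GH (right), by replicate letter, with a black tick for the median after each gene was averaged over letters. Letters of most lists fall on both sides of 0. The left values of ribosomal protein, glycolysis and DNA replication genes (-0.31, -0.25 and -0.24) are 0.00, 0.06 and 0.08 without centring. The median of all features is then 0.27, against -0.04 with centring.

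Genes of cell division gave mixed values. Of 34 tested DNA replication genes 25 were below 0 (52.7% of all features were, and 47.3% above), with a median of -0.24 (0.08 without centring). Gins2, a subunit of the GINS complex at the replication fork, was at 0.45, 0.46 and 0.31 on the NLS 1GH arrays, against 2.60, 1.07 and 1.89 on the NLS 0GH arrays. Its groups did not overlap (-1.45, SE 0.58, unadjusted p = 0.038), and it was 1.0 in WT samples. Rpa1, of the single-strand binding complex, was at -0.61, 1.24 and 0.78 on the NLS 1GH arrays, against 1.66, 1.76 and 1.88 on the NLS 0GH arrays (-1.30, SE 0.65). Cdc45, a helicase cofactor, was lower in every letter (-1.63, SE 0.95), while Pola1, the catalytic subunit of polymerase alpha, was higher in every letter (2.18, SE 0.93, unadjusted p = 0.0469). Among the 18 tested G1 regulators 11 were below 0 with a median of -0.45 (-0.13 without centring). Cdkn2b, the CDK4 inhibitor p15, was lower by 0.98, 1.60 and 3.27 (-1.95, SE 0.68, unadjusted p = 0.0219), and Cdk4 itself by 0.73, 0.17 and 0.54. Of 28 mitosis genes 15 lay above 0, with a median of 0.07 after averaging each gene over letters, while the medians within letters b, c and d were -0.0045, -0.12 and -0.07. In all letters 2 of these genes were higher and 7 lower (12.7% and 12.8% of all features were). The kinesins Kif4 (-0.95, SE 0.44) and Kif11 (-1.4, SE 0.69) were lower in every letter, and the kinetochore gene Ndc80 was higher in letters b and d (1.80, SE 0.87).

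In the BCL2 family and apoptosis list 15 of 24 genes were below 0 (52.7% of all features were, and 47.3% above), with a median of -0.21, or 0.10 without centring. Bbc3, the BH3-only protein PUMA, was at 0.77, 0.92 and 0.90 on the NLS 1GH arrays, against 3.38, 1.32 and 1.93 on the NLS 0GH arrays. Its groups did not overlap (-1.35, SE 0.57, unadjusted p = 0.0453). Bok had a mean of 2.38 that came mostly from letter b (6.04, 0.12 and 0.99). Nuclear import and export genes had 16 of 27 above 0 and a median of 0.07 (13 above 0 without letter b). Among them are importins, which carry cargo with a nuclear localization signal. Ipo9, an importin, was at -0.04, -0.13 and -0.15 on the NLS 1GH arrays, against 3.96, 0.19 and 2.15 on the NLS 0GH arrays (-2.20, SE 1.10), and it was also lower in every WT letter. Kpna6, an importin alpha, was higher in every NLS letter (0.99, SE 0.88) and lower in every WT letter (-1.96), with an unadjusted p = 0.045 for the interaction.

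The other lists held few genes of small p. Of 33 cytoskeleton and adhesion genes 23 were below 0 (52.7% of all features were, and 47.3% above), with a median of -0.17, or 0.15 without centring. Marcksl1, a substrate of protein kinase C, was at -2.46, -2.17 and -1.77 on the NLS 1GH arrays, against -1.68, -0.90 and -1.15 on the NLS 0GH arrays, with no overlap (-0.89, SE 0.32, unadjusted p = 0.0233). Actn1 (-1.23, SE 0.52) and Flna (-1.55, SE 0.68), which crosslink actin, were lower in every letter. Hspa4l, a heat shock protein of the HSP110 group, was lower in every letter (-1.41, SE 0.59, unadjusted p = 0.0459), within a list of 19 chaperone genes of which 12 were below 0 (7 without centring). Of the 22 interferon response genes 0 were higher and 0 lower in all letters (12.7% and 12.8% of all features were). In cholesterol and fatty acid synthesis 11 of 21 were above 0 (6 without letter b), and Elovl5, a fatty acid elongase, was at 1.89, 1.49 and 1.55 on the NLS 1GH arrays, against 2.40, 2.0 and 2.02 on the NLS 0GH arrays. The 3 differences of Elovl5 were close, at -0.51, -0.51 and -0.47, and the groups did not overlap, but the SE of 0.30 includes the WT letters. Of 29 chromatin and coregulator genes 19 were below 0 (10 without centring), and Ncoa1, a nuclear receptor coactivator, had the largest value, at 0.43, 1.95 and 6.69 in the letters (3.02, SE 1.44).

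Whether the GH difference depended on the receptor form was tested as NLS 1GH minus NLS 0GH less the same difference in WT. No feature passed (0 of 10762, lowest adjusted p 0.95 in limma). At an unadjusted p under 0.05 there were 399 features (3.71%), with 250 on the higher side (2.32%) and 149 on the lower (1.38%). The WT comparison by itself also had 0 adjusted calls in limma, with 401 features at an unadjusted p under 0.05 (3.73%), 178 higher (1.65%) and 223 lower (2.07%). Every WT letter was above 0 for 13.9% of features and below 0 for 9.91%. As a description across genes, the mean NLS and mean WT differences correlated at 0.02. Gphn had the smallest p, with 3.23 in NLS and -0.69 in WT samples. Psmc2, a proteasome ATPase, had the largest interaction among the named genes, with 4.09, 2.54 and 0.14 in the NLS letters against -4.64, -8.75 and -2.94 in the WT letters (7.70, SE 1.56, unadjusted p = 0.0012). Bcl11b, a zinc finger factor of T cell development, was higher in every NLS letter (1.57, 3.81 and 1.07) and lower in every WT letter (-2.36, -0.93 and -2.30). Asah2, a neutral ceramidase, was at 1.78 in NLS and -1.60 in WT samples, and Atp8a2 at 3.40 and -1.29. On the other side, Zfp296 was lower by 1.36, 1.46 and 1.31 in the NLS letters and higher by 0.26, 1.62 and 1.49 in the WT letters. Mt1, the metal-binding protein metallothionein, was at -1.30 in NLS and 2.09 in WT samples, Mrrf at -3.72 and 1.20, and Cnot2, of the deadenylase complex, at -2.17 and 1.56. Zfp41 had a difference of -0.24 in NLS and of 2.80 in WT samples. Each of these interactions had an adjusted p of 0.95.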

How the data were processed

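Total RNA of 12 mouse samples was compared on 2-colour spotted arrays, and the 6 NLS samples are described here. The deposited values are read as log2 ratios of reference over sample. Per the series' design text, the authors smoothed the log ratio against intensity by Lowess with a 50% window and raised the control channel to at least 200. The log base was inferred from the range of values, and scanner, background method and numerator are not stated.

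The sign of all values was turned. After 902 of 23040 spots were set aside as controls, 11245 had a value on all 12 arrays. Each array was centred on its median and spots of a gene were averaged, giving 10762 features. Of the spots kept, 16720 have 1 gene symbol in the platform annotation, 142 several (left unnamed) and 5276 none, and 16014 gene identifiers matched RefSeq. Of 367 genes with several spots, 185 had spots of opposite sign. Groups come from the sample titles. All 12 arrays were fitted with limma 3.58.1 (lmFit, eBayes) in R 4.3.3, two-sided, with the replicate letter as a block and Benjamini-Hochberg adjustment over all features at 0.05. The letters, which pair the arrays, come from the sample titles, and the labels give arrays of a letter the same red dye density (19.3, 19.8 and 17.9 bp per dye for b, c and d). Deviations from group means correlated at 0.11, 0.26 and 0.07 between the NLS arrays of letters b, c and d, and at -0.19 to 0.07 between letters in different groups.

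The fit was tested on simulated data. Named genes are the 10 per direction with the smallest p among those with the same sign in 3 letters, a fixed set of growth hormone genes, up to 4 genes of smallest p per list, and 5 per direction for the interaction. The samples, genes and lists were chosen with earlier results of these data known. Promoters come from RefSeq. Alternatives covered the block, centring, quantile normalization, missing values, limits at percentiles 2 and 98, single spots, the prior, green dye incorporation and each letter left out.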

Additional observations from a re-analysis of the deposited data

Results flagged for a closer look

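Of 22138 spots, 88 had a value on all 3 NLS 1GH arrays and on no NLS 0GH array, against 6 with the reverse pattern. These spots enter no comparison, since they have no NLS 0GH value. In WT samples the counts were 14 and 16, and among the 573 blank spots 1 and 1 on NLS arrays. The 88 spots hold 59 named genes and had a median level of -2.71 on the NLS 1GH arrays, and 4 of the listed genes are among them: Casp9, the initiator of the mitochondrial caspase cascade, Hsf2, a heat shock factor, Krt19, an epithelial keratin, and Peg3, an imprinted zinc finger gene. In letters c and d more spots had a value on the NLS 1GH array (19118 and 19376) than on the NLS 0GH array (18259 and 17321), and in letter b the numbers were 15678 and 15720. The labels do not say by which rule values were left out.

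The 18 tested genes of Ras, ERK and PI3K signalling had a median difference of -0.20 in NLS samples (0.12 without centring), with -0.02, -0.03 and -0.33 in letters b, c and d, and of 0.01 in WT samples, with 0.01, 0.10 and 0.01. Every NLS letter lay below 0 and every WT letter above it, by small amounts in most letters. The list was picked from 28 lists for this pattern, so the pattern is no support for a difference. Without letter d its NLS median was -0.01, with 9 genes above 0 and 9 below. The difference between the receptor forms was not tested for this list.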

How the results depend on the processing

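No feature passed an adjusted p of 0.05 under any of the alternatives run, for NLS 1GH minus NLS 0GH (lowest adjusted p between 0.344 and 0.9998) or for its difference from WT (between 0.165 and 0.9996). Counts at an unadjusted p under 0.05 moved with some settings, and the cause was not tested. For NLS 1GH minus NLS 0GH they were 287 higher and 183 lower with the replicate block, 184 and 130 without it, 512 and 49 without centring, and 463 and 239 with at least 2 values per group, a setting that tests 15115 features. Leaving out each letter gave 210 to 448 higher and 156 to 239 lower, with 448 higher without letter b. For the difference from WT they were 250 and 149, then 160 and 100 without the block, 570 and 39 without centring, 393 and 208 with at least 2 values per group, and 219 to 415 higher and 175 to 188 lower with 1 letter left out (415 without letter b). Without centring all features shift by a median of 0.27, and 68.4% instead of 47.3% lie above 0. The 20 genes of smallest p kept their sign in all 260 values over 13 alternatives. They had been picked for small p and the same sign in all letters, so their sign could not change with 1 letter left out. Dropping the block, changing the prior or fitting the same features on the NLS arrays alone leaves every difference as it is. These settings are therefore no test of the sign for any gene or list. Other named genes kept their sign in 1543 of 1574 values, and the 28 list medians in 307 of 364, with 16 of the 57 changes of sign without centring. With the Cy3 dye density as a further term in limma, 5 of the 28 list medians changed sign. The lowest adjusted p was then 0.514 for NLS 1GH minus NLS 0GH and 0.165 for the difference from WT. Depth limits these data through 3 arrays per group, ratios far from the array median that are not exact, and genes without a value on every array.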
